A study of Arabidopsis thaliana with 6 samples.

Results

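QQS (AT3G30720, Qua-Quine Starch) and the NF-YC genes, NF-YC1 (AT3G48590), NF-YC2 (AT1G56170), NF-YC3 (AT1G54830), NF-YC4 (AT5G63470), NF-YC5 (AT5G50490), NF-YC6 (AT5G50480), NF-YC7 (AT5G50470), NF-YC8 (AT5G27910) and NF-YC9 (AT1G08970), of Arabidopsis thaliana were followed in whole fertilised flowers of wild type and of atnaod. They were chosen by locus code: every array probe whose code equals 1 of these 10 loci was taken, which gave 12 probes of 43603, 1 for QQS and 11 for the NF-YC genes. QQS was proposed for its difference between the genotypes, so the values of the 10 genes in this contrast are a description and carry no test. A probe entered the fit across the array if, in either genotype, it was flagged by the scanner software as well above background in 3 of 3 samples, and 8 of the 10 genes had such a probe, among 24456 genes tested.

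The mutant atnaod is a T-DNA line of AtNAOD, which codes for an N-acetylornithine deacetylase and so for a step on the way to ornithine. Wild type and atnaod each had 3 independent biological replicates of stage 15 flowers, each a pool of about 100 flowers from 17 to 20 plants grown at 25 °C with 16 h of light and 8 h of dark. Each sample was labelled with Cy3 and read on 1 single-colour array. Samples 1 and 2 of both genotypes shared a slide and a scan, while the pair numbered 3 had a slide of its own.

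QQS is an orphan gene: its short protein has no recognisable relative outside Arabidopsis thaliana. It was found through a mutant of starch synthesis, and plants with more QQS hold less starch and more protein. The QQS protein binds NF-YC4, a subunit of nuclear factor Y. This factor is a trimer: NF-YB and NF-YC pair through their histone folds, and NF-YA joins them and reads the CCAAT box in promoters. Plants carry several genes for each subunit, and NF-YC3, NF-YC4 and NF-YC9 act redundantly with CONSTANS (CO) in the photoperiodic induction of FLOWERING LOCUS T (FT). Expression of QQS is known to differ among natural accessions with the DNA methylation at the gene.

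Values are log2 intensity minus the log2 of the array's 75th percentile, so that a spot as bright as that percentile reads 0. The 75th percentile lay between 1312 and 2998 intensity units, and the share of probes well above background ran from 73.1% to 79.2%. The main AtNAOD probe was above background in 3 of 3 wild-type samples and 0 of 3 atnaod samples. With atnaod values below the detection floor (defined below) raised to it, its processed signal was 369-fold lower in atnaod. A second AtNAOD probe, for the same transcript, was above background in 3 of 3 samples of each genotype. This second probe was 2.34-fold lower in atnaod, a log2 difference of -1.23. Why the probes differed was not tested. All 8 markers of floral organs were above background on all 6 arrays, as were 7 of 8 pollen markers (HAP2 on none), 4 of 6 early seed markers (IKU2 and PHE1 on none) and 5 of 5 seed coat markers. Their summed levels, in multiples of the 75th percentile, were 35.3 to 45.2 in wild type against 33.4 to 36.7 in atnaod for floral organs, 12.3 to 15.0 and 10.9 to 22.1 for pollen, 0.246 to 0.261 and 0.149 to 0.229 for early seed, and 6.88 to 8.38 and 3.001 to 4.88 for seed coat. Of the 8 floral organ markers 7 had a log2 difference (atnaod minus wild type) below 0. STK stood at -0.73, SHP1 at -0.49 and SHP2 at -0.48, and CRC alone lay above 0, at 0.59. In these whole flowers, fewer cells of a type and less RNA per cell cannot be told apart.

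QQS was about 6.69-fold higher in atnaod. Its processed intensity was 1669, 959 and 577 in wild type 1, 2 and 3 and 5538, 8034 and 4508 in atnaod 1, 2 and 3. On the scaled log2 level these became -0.85, -1.44 and -1.19 in wild type against 1.51, 1.5 and 1.74 in atnaod. Every atnaod sample lay above every wild-type sample, and the lowest atnaod value exceeded the highest wild-type value by 2.35 on the log2 scale. The wild-type samples were the more scattered, with an SD of 0.30 against 0.14 in atnaod (n = 3 each). The spot was above background and below saturation on all 6 arrays.

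The difference in mean log2 level was 2.74 (SE 0.162 in the fit across all genes), the third largest rise among the genes tested. It was 2.65 between the 4 samples on the first slide and 2.93 between the 2 on the second. The deposited values, which have no background subtracted, gave the same picture, with 1529, 994 and 1218 in wild type against 7354, 7159 and 8500 in atnaod. Over 18 other ways of processing, among them leaving out each sample in turn, the difference lay between 2.51 and 2.90. QQS was read by 1 probe, so no second probe stands beside it.

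**Figure D1:**
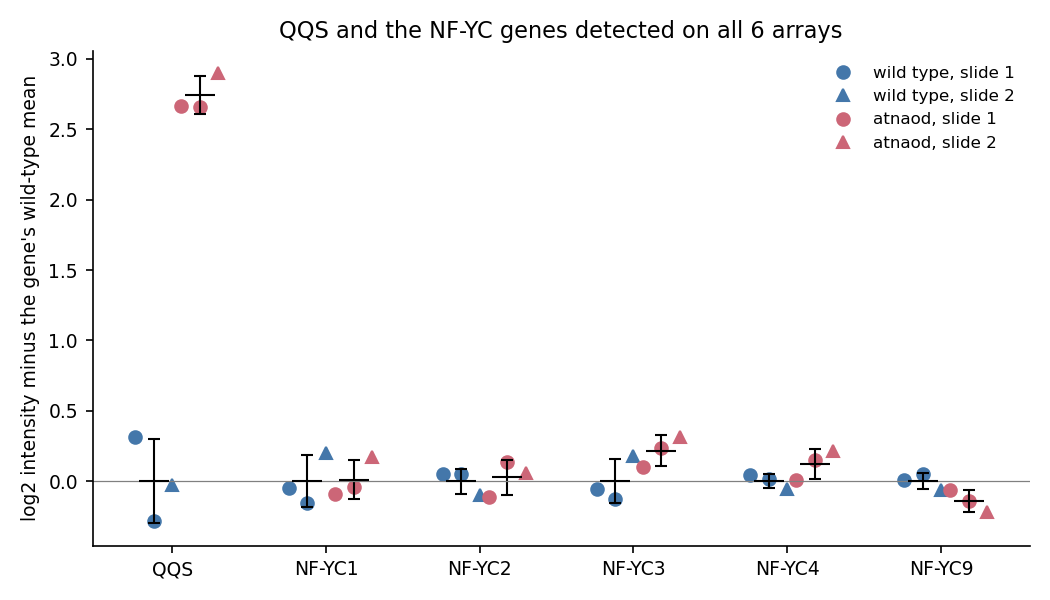
Scaled log2 intensity of each sample minus the gene's own wild-type mean, for QQS and the 5 NF-YC genes above background on all 6 arrays. Points are samples, bars are the mean ± SD of 3, and levels are not comparable between genes. The 3 atnaod samples lie 2.74 above wild type on average for QQS, and the means of the 5 NF-YC genes lie within 0.22 of wild type.

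Among the loci around QQS on chromosome 3, 0 of the 4 others tested were called by limma, and 0 had an unadjusted p under 0.05. These 4 were AT3G30730, AT3G30740, ERD5 and AT3G30817. The loci directly beside QQS did not pass the filter and were not tested. Calls here need an adjusted p under 0.05, with the Benjamini-Hochberg method applied to all 24456 genes, and 5.75% of these genes were called. The region is mostly pseudogenes: from AT3G30620 to AT3G30820, 27 loci including QQS had a probe, and 17 of them were above background on no array. The pseudogenes directly to either side of QQS, AT3G30722 and AT3G30724, were among these 17. AT3G30722 read 8, 8 and 6 intensity units in wild type 1, 2 and 3 and 5, 6 and 3 in atnaod 1, 2 and 3 at the brighter of its probes. AT3G30724 read 6, 7 and 4 in wild type against 4, 5 and 2 in atnaod. No atnaod sample exceeded the highest wild-type sample at either pseudogene.

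The nearest protein-coding neighbour, GDU6, belongs to the GLUTAMINE DUMPER family, whose members act in amino acid export. It read 24, 9 and 4 units in wild type against 14, 176 and 6 in atnaod, and was above background in atnaod 2 alone, so it was not tested. The next protein-coding gene, AT3G30730, read 66, 334 and 24 units in wild type against 127, 30 and 16 in atnaod. Its samples scattered widely within both genotypes, and its log2 difference of -0.88 had a 95% interval of -3.09 to 1.32. ERD5, a proline dehydrogenase gene farther along the region, stood at 0.37 (-0.01 to 0.74).

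NF-YC4, the known partner of the QQS protein, differed by less than 0.15 on the log2 scale at both of its probes with the processed signal. Its main probe read 1.33, 1.30 and 1.23 in wild type against 1.29, 1.44 and 1.5 in atnaod. The genotypes overlapped, and the difference was 0.12 (95% interval -0.09 to 0.34). With the planned normexp background correction it was 0.30. The probe named for its second transcript read -1.93, -1.98 and -2.04 in wild type against -1.86, -1.75 and -1.91 in atnaod. There the 3 atnaod samples lay above the 3 wild-type samples by a small margin, as in 15.3% of all genes tested. The difference was 0.14 (-0.07 to 0.36 in a fit across all 32495 probes tested).

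NF-YC3 and NF-YC9, which act with NF-YC4 in flowering and in seed germination, lay close to 0 and on opposite sides of it with the processed signal. With the planned normexp background correction they stood at 0.33 and 0.03, on the same side. NF-YC3 read 0.63, 0.56 and 0.86 in wild type against 0.78, 0.92 and 1.0 in atnaod, a difference of 0.22 (-0.05 to 0.48). NF-YC9 read 1.75, 1.79 and 1.68 in wild type against 1.68, 1.60 and 1.52 in atnaod, a difference of -0.14 (-0.35 to 0.07). In NF-YC3 wild type 3 lay among the atnaod samples, and in NF-YC9 atnaod 1 was level with wild type 3. Between samples of the same number, NF-YC3 was higher in atnaod by 0.15, 0.36 and 0.14, and the NF-YC9 differences were -0.07, -0.19 and -0.15. Neither interval excludes 0, which does not show that the levels were equal.

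NF-YC1 and NF-YC2 code for further widely expressed subunits. NF-YC1 read -2.56, -2.66 and -2.31 in wild type against -2.60, -2.55 and -2.34 in atnaod. Its difference of 0.01 (-0.29 to 0.31) was far smaller than its spread within a genotype, and sample 3 was the highest in both genotypes. With the planned normexp background correction NF-YC1 stood at -0.57. NF-YC2 read 2.59, 2.59 and 2.44 in wild type against 2.43, 2.68 and 2.60 in atnaod, a difference of 0.03 (-0.21 to 0.27). Its second probe stood at -0.02 (-0.36 to 0.32). Both genes overlapped between the genotypes at every probe.

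NF-YC5 and NF-YC6 were above background in 3 of 3 wild-type samples and in 0 of 3 atnaod samples. They are neighbours on chromosome 5, in a row of 3 with NF-YC7. NF-YC5 read 56, 51 and 33 intensity units in wild type against 19, 13 and 12 in atnaod. NF-YC6 read 48, 55 and 29 units in wild type against 19, 23 and 6 in atnaod. In both genes every wild-type sample exceeded every atnaod sample, as in 17% of all genes tested, though all 6 values were close to the dark end of the array.

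The detection floor is the lowest signal that the software marked as well above background on that array. With atnaod values below the floor raised to it, the processed signal was 2.30-fold (NF-YC5) and 2.40-fold (NF-YC6) lower in atnaod. These are not lower bounds: with the deposited values the log2 differences were -0.36 and -0.42. The floor was 18.3 to 30.7 units in wild type against 8.64 to 23.8 in atnaod. The measured means of the scaled log2 level were -5.58 ± 0.24 and -7.09 ± 0.61 for NF-YC5 and -5.68 ± 0.26 and -7.15 ± 0.64 for NF-YC6 (wild type and atnaod, SD, n = 3). Both genes passed the filter only through wild type, where they lay just above the floor, so that a difference was built into their passing. Of all genes tested, 17 had this pattern (0.0695%), and 113 had the opposite one (0.462%).

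The size of the difference in NF-YC5 and NF-YC6 depended on how background was handled. It was -1.51 and -1.47 with the processed signal, with -1.52 and -1.48 for NF-YC5 and -1.03 and -2.36 for NF-YC6 on the first and second slide. With the planned normexp correction, in which 5 spots of wild type 1 had an extreme local background, both stood at -1.71. With those backgrounds set to the median (capped normexp) they stood at -0.29 and -0.30. With the deposited values it was -0.36 and -0.42, and there the genotypes overlapped: NF-YC5 read 66.6, 73.5 and 137.8 in wild type against 64.9, 46.4 and 105.2 in atnaod. NF-YC6 read 69.5, 84.9 and 151.5 in wild type against 71.0, 55.3 and 95.8 in atnaod. Within each slide the deposited values of wild type were the higher ones except for NF-YC6 in atnaod 1, which lay just above wild type 1.

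Dim probes as a class also read lower in atnaod. The 7784 probes that were not above background on any array had a median difference of -0.48 with the processed signal and of 0.07 with the deposited values. Relative to wild type on average, the median of these probes stood at -0.36, 0.04 and 0.30 in wild type 1, 2 and 3 and -0.27, -0.48 and -0.77 in atnaod 1, 2 and 3. The 31231 probes above background on all 6 arrays had a median difference of -0.01. The part of this shift in the values of NF-YC5 and NF-YC6 was not tested.

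NF-YC7 and NF-YC8 did not pass the filter. NF-YC7 read 18, 195 and 14 units in wild type against 5, 8 and 2 in atnaod, and was above background in wild type 2 alone. Its wild-type mean therefore rests on that sample, and no fold is given. NF-YC8 was above background on no array, with 20, 22 and 8 units in wild type against 16, 22 and 8 in atnaod.

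**Figure D2:**
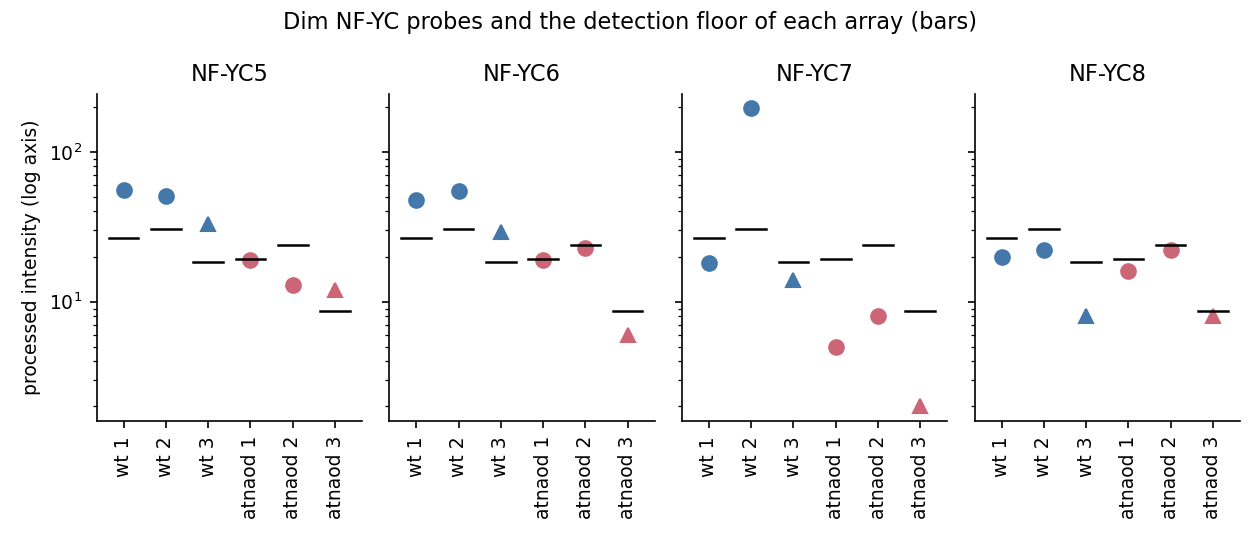
Processed intensity (log axis) of the probes of NF-YC5, NF-YC6, NF-YC7 and NF-YC8 on each array; circles are slide 1, triangles slide 2, blue wild type and red atnaod. The bar is the detection floor of that array, a lowest marked signal, so that a spot can lie above it without the mark. NF-YC5 and NF-YC6 lie above the bar in the 3 wild-type samples, NF-YC7 in wild type 2 alone and NF-YC8 in none. Without the mark, NF-YC5 in atnaod 3 also lies above the bar, and NF-YC6 in atnaod 1 is level with it.

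In the fit across all genes, 0 of the 5 NF-YC genes above background on all 6 arrays were called by limma, and 0 had an unadjusted p under 0.05, a level that 25.8% of all genes reached. NF-YC5 and NF-YC6 were called lower, as 3.04% of all genes were (2.72% were called higher), but the filter built in their difference. Without wild type 1, wild type 2, wild type 3, atnaod 2 or atnaod 3 neither was called, and with the replicate block NF-YC6 was not. The contrast is the one that chose QQS, so nothing is read from these counts. By correlation with QQS over the 6 arrays, as a description across samples that share a genotype split, NF-YC1 stood at 0.09. NF-YC2 stood at 0.17, NF-YC3 at 0.72, NF-YC4 at 0.71 and NF-YC9 at -0.81. NF-YC5 stood at -0.88 and NF-YC6 at -0.92, but both were above background in 0 of 3 atnaod samples. The filter built that split into the values of NF-YC5 and NF-YC6.

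Of 8 NF-YB genes tested 1 was called lower, as were 3.04% of all genes. This was LEC1, which is NF-YB9 and directs embryo development. It read -4.84, -4.90 and -4.64 in wild type against -5.54, -5.44 and -5.43 in atnaod. Every atnaod sample lay below every wild-type sample, as in 17% of all genes tested. The fall was 0.68 on the log2 scale (SE 0.0998, adjusted p = 0.0262 by limma), lower in 3 of 3 samples. It was called in 10 of 18 alternatives, whose adjusted p ran from 0.00879 to 0.589. The difference was -1.48 with planned normexp, -0.35 with capped normexp and -0.39 with the deposited values, and none of these passed (adjusted p = 0.589, 0.419 and 0.453 by limma). The early seed and seed coat markers, whose summed levels are given above, also lay lower in atnaod, with 4 of 4 and 5 of 5 tested markers below 0, and their part in the fall of LEC1 was not tested.

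The other NF-YB genes, which supply the direct partners of NF-YC, gave no call. Without LEC1, 7 were tested, 6 lay below 0, and the median was -0.08. NF-YB2, which acts in photoperiodic flowering, stood at -0.36 (95% interval -0.83 to 0.12), with 1.07, 1.66 and 1.87 in wild type against 1.13, 1.1 and 1.29 in atnaod. Wild type 1 was the lowest of all 6 samples there, so that the genotypes overlapped. NF-YB3, its close relative, stood at -0.06 (-0.52 to 0.40). NF-YB7, NF-YB8, NF-YB1, NF-YB10 and NF-YB5 lay between -0.17 and 0.04, and NF-YB4 and NF-YB6 did not pass the filter.

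Among the NF-YA genes, whose proteins bind the CCAAT box, limma called 0 of 10, and 0 had an unadjusted p under 0.05, against 25.8% of all genes tested. Their differences ran from -0.36 to 0.24 with a median of 0.07. NF-YA10 had the lowest, with -2.09, -2.34 and -2.94 in wild type against -2.59, -2.85 and -3.01 in atnaod. NF-YA2 had the highest, 0.24 (-0.02 to 0.50), with -1.96, -2.22 and -1.89 in wild type against -1.79, -1.83 and -1.73 in atnaod. Those of NF-YA2 did not overlap, a pattern that 32.3% of all genes tested showed in either direction. NF-YA1, NF-YA3, NF-YA4, NF-YA5, NF-YA6, NF-YA7, NF-YA8 and NF-YA9 lay between -0.18 and 0.17.

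Of the 4 genes numbered after the NF-YC core, 1 was called lower, as were 3.04% of all genes. This was NF-YC13. It read -2.47, -2.36 and -2.55 in wild type against -2.96, -3.20 and -3.32 in atnaod. The 3 atnaod samples lay below the 3 wild-type samples, as in 17% of all genes tested. The fall was 0.70 (SE 0.117, adjusted p = 0.0297 by limma), and it was called in 9 of 18 alternatives (adjusted p from 0.00846 to 0.589). The difference was -1.15 with planned normexp, -0.55 with capped normexp and -0.58 with the deposited values, and none of these passed (adjusted p = 0.589, 0.0553 and 0.0597 by limma). NF-YC10, whose protein works with DREB2A in the heat response, stood at -0.22 (-0.46 to 0.02), and NF-YC12 at 0.23 (-0.01 to 0.47). NF-YC11, the counterpart of a general repressor of transcription, stood at -0.04.

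**Figure D3:**
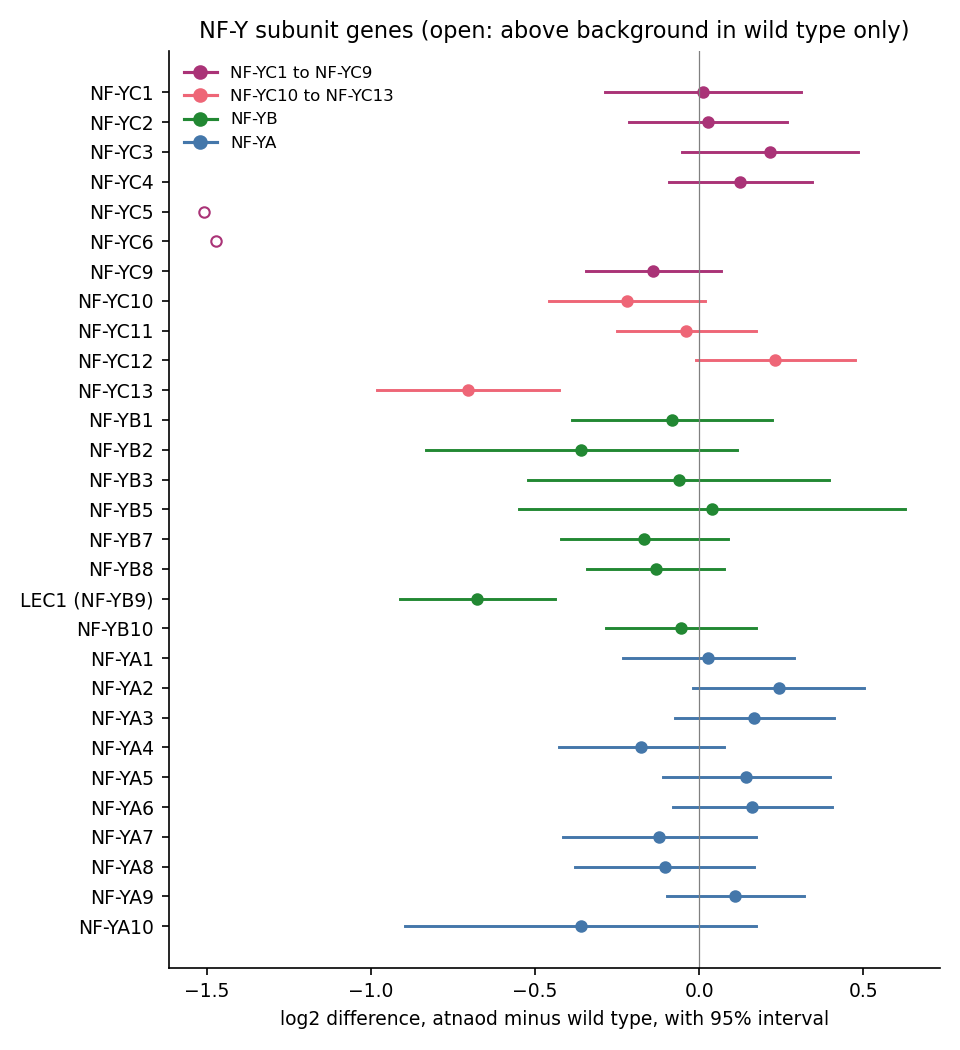
Log2 difference (atnaod minus wild type) for each NF-Y subunit gene that was tested, with its 95% interval, coloured by subunit class. Open circles are NF-YC5 and NF-YC6, drawn without an interval because the filter built in their difference; the intervals of NF-YC13 and LEC1 lie below 0 and those of all other genes drawn include 0.

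CO and FT, the pair through which NF-YC3, NF-YC4 and NF-YC9 are known to act in flowering, both fell. CO, whose protein forms a complex with NF-YB and NF-YC, read -4.84, -4.62 and -4.68 in wild type against -5.08, -5.36 and -5.54 in atnaod. FT, the gene of the mobile flowering signal, read 1.48, 1.37 and 1.63 in wild type against 0.99, 0.79 and 0.72 in atnaod. For both genes the 3 atnaod samples lay below the 3 wild-type samples, as in 17% of all genes tested. FT fell by 0.66 (SE 0.112, adjusted p = 0.0311 by limma) and CO fell by 0.62 (SE 0.135, adjusted p = 0.0487).

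The FT difference was -0.54 with planned normexp (adjusted p = 0.589 by limma), -0.70 with capped normexp (0.0473) and -0.70 with the deposited values (0.0562). It was called in 10 of 18 alternatives (adjusted p from 0.0102 to 0.589). CO, a dim probe, stood at -1.52 with planned normexp, -0.25 with capped normexp and -0.29 with the deposited values. CO was called in 5 of 18 alternatives (adjusted p from 0.0129 to 0.625), and the replicate block ended its call (adjusted p = 0.0657). Of the 10 partner and target genes 9 were tested and these 2 were called, both lower, as were 3.04% of all genes. ABI5, a regulator of seed germination bound by NF-YC with RGL2, stood at 0.46 (0.16 to 0.76, adjusted p = 0.0787), and DREB2A at -0.20 (-0.49 to 0.09). SOC1, RGA, RGL2 and GAI lay between -0.06 and 0.13, and bZIP67 did not pass the filter.

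**Figure D4:**
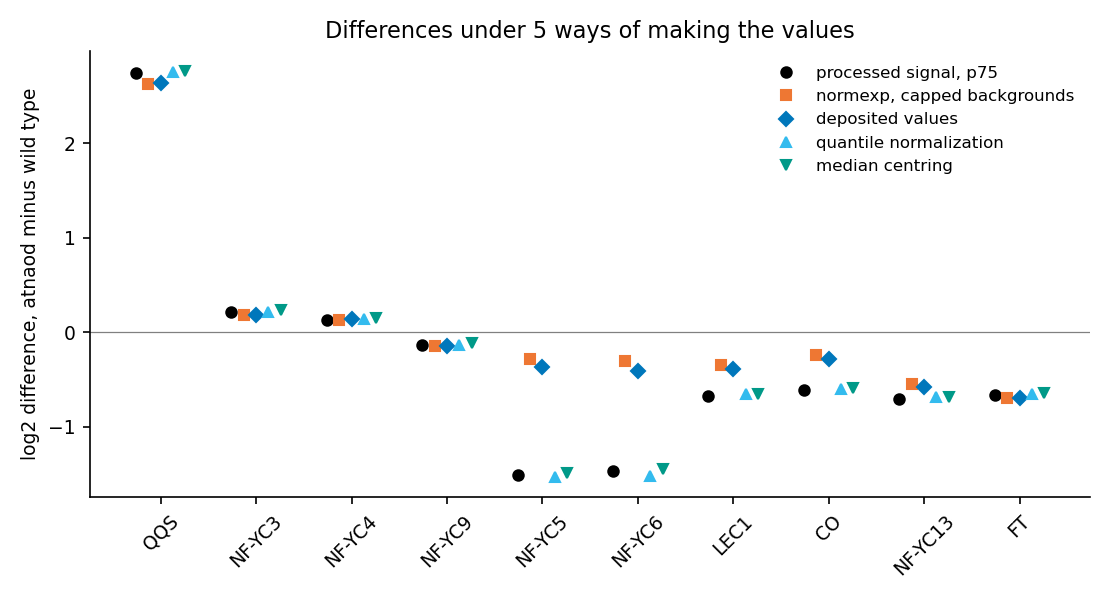
Log2 difference (atnaod minus wild type) of 10 genes under 5 ways of making the values, planned normexp not among them. QQS stays between 2.62 and 2.76 and FT between -0.70 and -0.64, while the dim probes of NF-YC5, NF-YC6, LEC1 and CO give smaller differences with capped normexp and with the deposited values.

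Starch genes, the pathway that gave QQS its name, showed a single call among 37 tested. SEX4, a phosphatase that removes phosphate from starch during its breakdown, read 1.28, 1.14 and 1.21 in wild type against 0.83, 0.77 and 0.83 in atnaod. It fell by 0.40 (SE 0.0838, adjusted p = 0.0447 by limma) and lost its call with the replicate block (adjusted p = 0.0537). It was lower in 3 of 3 samples without overlap, as were 17% of all genes tested. It was called in 5 of 18 alternatives (adjusted p from 0.0177 to 0.589). The next by p were the related phosphatase gene LSF2 at -0.43 (-0.74 to -0.13), the beta-amylase gene BAM3 at 0.40 (0.10 to 0.70) and the glucan kinase gene PWD at 0.39 (0.09 to 0.70), none of them called. In all 16 genes lay above 0 and 21 below, the median was -0.01 as for all genes, and 6 of 37 had an unadjusted p under 0.05, against 25.8% of all genes. The list had 1 call where 5.75% of all genes were called.

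Genes of DNA methylation, the process known to go with variation in QQS, gave 0 calls by limma among 23 tested, with 4 at an unadjusted p under 0.05, which 25.8% of all genes reached. Array weights gave 2 calls, in a fit that called 15.8% of all genes. The 4 were AGO9, an argonaute gene of the ovule, at 0.28 (0.10 to 0.47, adjusted p = 0.0804), NRPD1, of RNA polymerase IV, at 0.43 (0.13 to 0.74, adjusted p = 0.0955), and VIM2 and VIM3, of methylation maintenance, at -0.48 and -0.42. The list had 12 genes above 0 and 11 below, and a median of 0.00. DRM1 did not pass the filter. Methylation itself was not measured here.

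The named genes with a profile most like that of QQS over the 6 arrays, by Pearson correlation among all genes tested, were SEU (0.9994), a transcriptional co-regulator of flower development, CCR1 (0.9993), the receptor kinase gene AT3G09780, AGO9 (0.9991), the MAP kinase gene MPK18 (0.9987) and NET1D (0.9955). Their differences, smaller than that of QQS, were 0.68, 0.91, 0.28, 0.72 and 0.38. Those most opposite were WIH1 (-0.9982), the mitochondrial DNA-binding gene MTSSB (-0.9969), the phytosulfokine precursor gene PSK4 (-0.9967), the peptide gene RALFL34 (-0.9959) and RTE1 (-0.9957), a regulator of ethylene sensitivity, with differences between -0.73 and -0.25. The points fall into the 2 genotypes and share them with the choice of QQS, so no p is given.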

How the data were processed

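Per the labels, the RNA of each sample carried Cy3 alone. The authors' scanner files, per the file headers, hold spot intensity from Feature Extraction 10.5.1.1 (10.5 per the submitters' processing notes), with background subtracted and the spatial trend removed within each array and no scaling between arrays. The deposited value table also holds intensity: in each column at least 99.98% of values lay within 1% of a fixed multiple of the spot median, with no background subtraction. Its column medians ran from 450.9 to 518.9.

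Here the log2 of the processed intensity minus each array's 75th percentile was used. Outlier spots, 2 to 35 on each array, were dropped, spots of a probe were averaged, and the probe of highest mean stood for a gene. Symbols came from the array's locus codes matched to RefSeq (TAIR10.1). The comparison used limma 3.58.1 under R 4.3.3 (lmFit, eBayes, two-sided, Benjamini-Hochberg over all genes), a procedure tested on simulated data. Intervals are 95% intervals of the same fit and cover the spread between 3 samples per group, and the number of arrays limits precision. No sequence of a probe or gene was used here.

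The members and lists were chosen with earlier results of these data known. The named genes are all members, all NF-Y genes tested, up to 4 genes of lowest p in each other list, loci with a probe from AT3G30620 to AT3G30820, and the 5 genes most and 5 least correlated with QQS. Replicate numbers come from the labels: after the genotype means were removed, samples sharing a number correlated at 0.190, 0.111 and 0.535 across genes and other pairs at -0.354 to 0.215. Every same-number value was over 0.1, and the numbers were taken to pair the samples in the alternative with a replicate block. The main fit had no block, so its SEs, intervals and p-values are unpaired. On the first slide the cross pairs were over 0.1 as well. Wild type 1 correlated more with atnaod 2 (0.215) than with atnaod 1, and wild type 2 with atnaod 1 stood at 0.105. The pair at 0.535 had a slide of its own. These correlations therefore cannot tell pairing by number from a shared slide, and the pairing rests on the replicate numbers alone. Alternatives were other background corrections (normexp on the median spot and local background signals, offset 50), scalings, filters, probe rules, priors and weights, a block for replicate number or slide, and the omission of each sample.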

Additional observations from a re-analysis of the deposited data

How the results depend on the processing

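The QQS difference stayed within its replicate spread in all 18 alternatives, from 2.60 to 2.90 when 1 sample was left out. Of all genes, 1407 were called, against 4 with normexp as planned, 243 with extreme local backgrounds set to the median (an alternative chosen after seeing the data), 12 with the deposited values, 22 with no filter on dim probes, 2259 with a trended and robust prior, 3876 with array weights, and 15 to 1546 with 1 sample left out (of wild type, 572 without sample 1, 21 without 2 and 17 without 3, and of atnaod, 15 without 2 and 126 without 3). In the planned normexp, 5 spots of wild type 1 had a local background over 10 times the median, reaching 394525 against 34. Setting these to the median moved the calls from 4 to 243, still below 1407, and the rest of the gap was not tested. The planned normexp turned CCR1 to -0.15, and the cause for single genes was not tested.

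With both normexp settings, the deposited values and no filter, 0 NF-YC1 to NF-YC9, 0 NF-YB and 0 NF-YC10 to NF-YC13 genes were called. With a filter on all 6 arrays, which removes NF-YC5 and NF-YC6, 0 of NF-YC1 to NF-YC9 were called, and 1 was with quantile normalization or the replicate block. Of the partners and targets 0 were called with planned normexp, the deposited values or no filter, and 1 with capped normexp, quantile normalization, the mean over probes or the replicate block. Of the starch genes 3 were called with array weights or slide as a block, and 0 with either normexp, median centring, the deposited values, no filter, the mean over probes or the replicate block. Array weights called 2 genes of DNA methylation, NRPD1 and AGO9, and no alternative called an NF-YA gene. With 1 sample left out, the calls ranged from 0 to 2 for NF-YC1 to NF-YC9, 0 to 1 for NF-YB, 0 to 1 for NF-YC10 to NF-YC13, 0 to 3 for partners and targets and 0 to 1 for starch. LEC1, NF-YC13, FT, CO and SEX4 lost their calls without wild type 2, wild type 3, atnaod 2 or atnaod 3; NF-YC13, FT, CO and SEX4 also without wild type 1, and SEX4 without atnaod 1. The replicate block changed no other call among the NF-Y, partner, starch and DNA methylation genes than those of NF-YC6, CO and SEX4, and among the genes most like QQS it ended that of NET1D.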

Other observations

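The pattern of NF-YC5 and NF-YC6, above background in 3 of 3 wild-type and 0 of 3 atnaod samples, held for 17 genes. Among them, at its main probe only, was AtNAOD (AT4G17830). Others, with the processed signal, were the MADS-box gene AGL58 at -2.19 on the log2 scale and the small peptide gene SCRL9 at -1.86. The purine permease gene PUP6 stood at -1.38. AGL58, SCRL9 and PUP6 also passed the filter only through wild type, so a difference was built in. Their atnaod values were not above background, so the sizes are not measured falls. These were chosen after their values were seen. The opposite pattern held for 113 genes, and atnaod 3, where 79.2% of probes were above background, had the lowest detection floor of the 6 arrays.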
